A study of Mus musculus with 4 samples.

Results

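Among the unannotated transcripts detected in granulocyte-monocyte progenitors of the bone marrow, which mature into neutrophils or monocytes, 81 of 5059 known genes carried symbols of chromatin writers, erasers, readers and remodellers. Members were all genes whose mouse symbol starts with Kmt, Kdm, Setd, Chd, Smarc, Arid, Brd, Hdac, Kat followed by a digit, Phf, Ino80 or Tet. Kmt2c, Chd9 and Kdm5d were left out by the same rule. They held 156 of the 7945 unannotated transcripts of known genes, which are transcripts assembled from the reads that have no entry of their own in the annotation used by the authors. Chdh, a choline dehydrogenase, and Brd8dc entered by symbol alone. The other 79 members are described here by what their proteins do.

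Of the 4 libraries, 2 came from MST1-deficient mice and 2 from wild-type mice, and each was made from cells pooled from 10 mice. All were poly(A)-selected RNA from untreated progenitors that had been sorted from bone marrow and put in medium with serum. The labels do not give the allele, the strain, the age or the sex of the mice, or which gene the name MST1 stands for. The genotype of each library therefore rests on its label. P-values measure the spread between these pools.

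Histone writers add acetyl or methyl groups to histone tails, erasers take them off, and readers with bromodomains or PHD fingers bind the marked tails. Remodellers of the SWI/SNF, CHD, ISWI and INO80 families use ATP to slide, evict or exchange nucleosomes. TET enzymes oxidise methylated cytosine in DNA. In blood progenitors these proteins are known for holding open or closing the genes of the myeloid programme, and several of their genes, among them TET2, KMT2A and KDM6A, are mutated in human myeloid disease.

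Each library held 928977 to 1079382 estimated counts over its unannotated transcripts, and 13939 to 18919 of them fell on the members. That was 2% and 1.79% of the counts on known genes in the MST1-deficient libraries, and 2.08% and 1.81% in the wild-type libraries. Values are given as FPKM, which scales fragments to the length of the transcript and the size of the library, summed over the unannotated transcripts of a gene. They say nothing of the annotated transcripts of the same gene, which were not analysed here. Of 17 progenitor markers, 4 had an unannotated transcript, so the labelled cell type could be checked in part only. Csf3r, the receptor for granulocyte colony-stimulating factor, had 58.2 and 51.5 FPKM in MST1-deficient and 68.4 and 31.1 FPKM in wild-type libraries. It was the highest of the 4 except in wild-type replicate 2, where Fcgr2b had 34.27 FPKM. Over the 4 libraries Fcgr2b ran from 17.74 to 42.27 FPKM and Gfi1 from 16.55 to 46.7 FPKM. Kit, the last of them, did not exceed 0.05 FPKM and was at 0 in wild-type replicate 2. Summed T and NK cell markers (4 of 10 with a value) lay at 5.15 to 9.29 FPKM in MST1-deficient and 23.5 to 31.7 FPKM in wild-type libraries, and erythroid markers (4 of 9) at 4.43 to 13.8 and 19.4 to 26.4 FPKM. Most of the T and NK sum came from Klrc1, an NK receptor, at 3.98 and 4.34 FPKM in MST1-deficient and 19.7 and 22.3 FPKM in wild-type libraries. Zap70, a T cell kinase, had 1.5 and 0.81 FPKM in MST1-deficient and 0.51 and 0.45 FPKM in wild-type libraries, the opposite order, and Klrb1c overlapped. Cd3g was listed in MST1-deficient replicate 1 alone, and Cd3e, Cd4, Cd8a and Klf1 had no value. Of the erythroid markers, Sptb separated the groups and Ank1 overlapped. Eosinophil, basophil and mast cell markers (3 of 8) summed to 48.7 to 63.2 FPKM in MST1-deficient and 77.2 to 112 FPKM in wild-type libraries, whereas neutrophil, monocyte, megakaryocyte, B cell and stromal sums overlapped between the groups. The part of these marker levels in the differences given here was not tested. In such bulk RNA, fewer cells of a type and less RNA per cell cannot be told apart.

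No member differed between MST1-deficient and wild-type progenitors after adjustment. Of the 81 genes, 54 reached 1 FPKM in at least 2 of the 4 libraries and were tested. The number called was 0 by the quasi-likelihood test of edgeR, 0 by DESeq2 and 0 by limma, where the shares called among all 3221 genes tested were 0%, 1.43% and 0.155%. The lowest adjusted p of a member in edgeR was 0.77. At an unadjusted edgeR p under 0.05 there were 2 members (3.7%), against 5.65% of all genes tested. They were Kat7 on the higher side, where 3.01% of all genes stood, and Brd2 on the lower side, where 2.64% stood. Both MST1-deficient values lay above both wild-type values for 3 members (5.56%, against 14.1% of all genes tested). Both lay below for 5 members (9.26%, against 18.8%), which makes 14.8% of members and 32.8% of all genes tested without overlap in either direction. The median log2 fold change of the 54 was 0.05, with quartiles at -0.23 and 0.24, and that of all genes tested was 0.01. For 19 of 54 members (35.2%, against 22.2% of all genes tested) the 95% interval of the log2 fold change lay within -1 to 1. This bounds the gene sum to less than a 2-fold difference, and it does not bound the single transcripts summed in it. Arid1b was 1 such member (-0.57 to 0.97). Fitted singly, its 10068-base transcript came to 1.74 (SE 1.06) and its 9404-base transcript to -1.12 (SE 0.57), neither past the adjusted threshold. With 2 pools a group, an exact permutation test of 1 gene cannot go below p = 0.33.

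**Figure D1:**
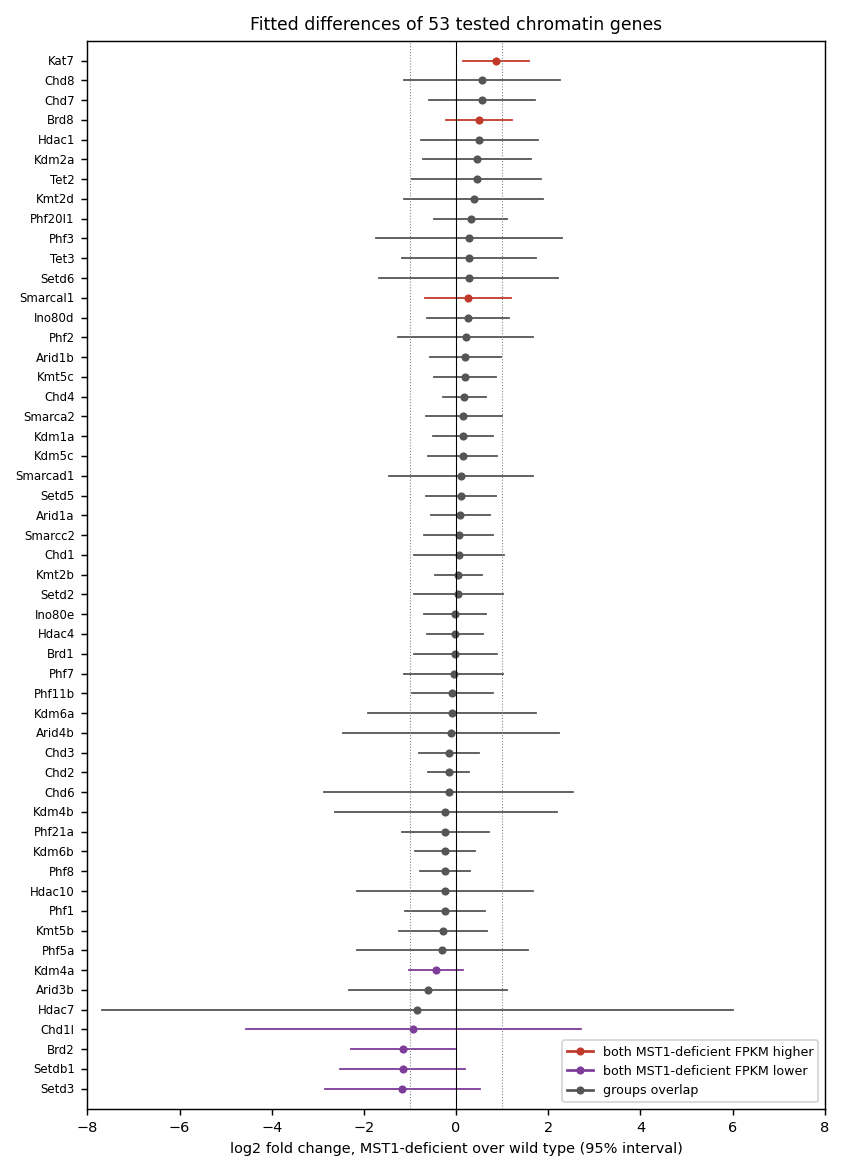
Log2 fold change (MST1-deficient over wild type) of 53 tested members, from edgeR on gene sums, with 95% intervals. The values run from -1.17 for Setd3 to 0.87 for Kat7, and no member passed the adjusted threshold.

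Kat7 encodes the acetyltransferase HBO1 (lysine acetyltransferase 7), which acetylates histones H3 and H4. Its unannotated transcripts (gene at chromosome 11, 95271853 to 95310246, GRCm38.p6) reached 6.80 and 6.52 FPKM in MST1-deficient and 4.30 and 3.34 FPKM in wild-type libraries. Both MST1-deficient libraries lay above both wild-type libraries, with means of 6.66 ± 0.198 and 3.82 ± 0.679 FPKM (SD, n = 2 each). The log2 fold change was 0.87 (SE 0.27, 95% interval 0.16 to 1.58), and its edgeR p of 0.0267 became 0.77 after adjustment. No other acetyltransferase passed the minimum for testing. Kat2b, which encodes the coactivator PCAF, was listed at 1.99 FPKM in wild-type replicate 1 and at 0 in the other 3 libraries. Kat2a, a paralogue of Kat2b, and Kat6b, an acetyltransferase of the MYST family, stayed at or below 0.61 FPKM in every library. Kat14, a subunit of the ATAC acetyltransferase complex, had 0.58 and 0.40 FPKM in MST1-deficient and 1.18 and 0.83 FPKM in wild-type libraries.

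Promoters are shown for Kat7, Setdb1 and Kdm4a, which are 3 of the 8 members without overlap between the groups. The Kdm4a window is set on a start inside the gene, which reaches 118180090, so another start upstream is possible. The sequences are from RefSeq on GRCm38.p6, minus strand, from 250 bases before to 50 after the start, and lie at chr11:95310197-95310496, chr3:95357153-95357452 and chr4:118179994-118180293.
Kat7: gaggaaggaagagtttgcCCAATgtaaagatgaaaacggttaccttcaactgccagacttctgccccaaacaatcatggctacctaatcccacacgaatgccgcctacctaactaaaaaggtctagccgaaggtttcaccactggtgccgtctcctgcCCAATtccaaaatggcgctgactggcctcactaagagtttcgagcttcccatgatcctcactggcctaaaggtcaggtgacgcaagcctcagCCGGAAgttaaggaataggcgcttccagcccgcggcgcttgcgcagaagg
Setdb1: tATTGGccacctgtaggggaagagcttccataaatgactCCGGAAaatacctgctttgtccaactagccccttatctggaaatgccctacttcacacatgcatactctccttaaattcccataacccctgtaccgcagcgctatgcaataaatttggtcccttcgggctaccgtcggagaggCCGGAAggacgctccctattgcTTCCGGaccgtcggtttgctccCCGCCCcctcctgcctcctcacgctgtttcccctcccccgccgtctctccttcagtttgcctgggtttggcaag
Kdm4a: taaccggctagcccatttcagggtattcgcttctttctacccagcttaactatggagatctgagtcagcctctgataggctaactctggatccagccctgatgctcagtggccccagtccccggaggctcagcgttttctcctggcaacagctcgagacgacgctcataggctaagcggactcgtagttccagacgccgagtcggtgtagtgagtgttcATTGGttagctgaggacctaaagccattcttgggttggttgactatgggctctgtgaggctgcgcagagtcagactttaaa
Capitals mark exact matches, on either strand, to GGGCGG (the GC box), CCAAT, and CCGGAA (the core bound by ETS factors), none of which overlapped here. Kat7 held 2 matches to CCAAT and 1 to CCGGAA. Setdb1 held 1 match to GGGCGG, 1 to CCAAT and 3 to CCGGAA, and Kdm4a held 1 to CCAAT. Among 32817 RefSeq promoters of this length, 35.6% held GGGCGG, 37.4% held CCAAT and 14.9% held CCGGAA. The unannotated transcripts may start elsewhere, so the windows show an annotated start of each gene only.

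Methyltransferases made up 14 members, of which 9 were tested. Setd3 encodes the methyltransferase of actin histidine, a SET-domain protein first described as a histone methyltransferase. It had 3.04 and 8.06 FPKM in MST1-deficient and 12.2 and 15.1 FPKM in wild-type libraries (gene at chromosome 12, 108106431 to 108179345). The groups did not overlap, but MST1-deficient replicate 1 was far below replicate 2. The log2 fold change was -1.17 (SE 0.64, edgeR adjusted p = 0.943), and leaving out MST1-deficient replicate 1 or replicate 2 moved it to -0.55 or -2.27. Setdb1, which methylates histone H3 at lysine 9 and silences retroelements, had 0.85 and 0.80 FPKM in MST1-deficient and 1.55 and 2.23 FPKM in wild-type libraries (gene at chromosome 3, 95323525 to 95357202). Its MST1-deficient pair was close together and below both wild-type values, with a log2 fold change of -1.16 (SE 0.51, edgeR adjusted p = 0.912), or -0.77 when wild-type replicate 2 was left out. Setdb1 passed the minimum through its wild-type values alone.

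Kmt2b, a methyltransferase of histone H3 lysine 4 in COMPASS-like complexes, had the highest level of the methyltransferases. It had 25.5 and 22.7 FPKM in MST1-deficient and 30.01 and 22.34 FPKM in wild-type libraries, which overlapped, and a log2 fold change of 0.05 with a 95% interval of -0.46 to 0.56. Kmt5c, which methylates histone H4 at lysine 20, followed with 21.8 and 12.9 FPKM in MST1-deficient and 16.1 and 14.9 FPKM in wild-type libraries. Kmt2d, which acts at enhancers, had 4.89 and 4.44 FPKM in MST1-deficient and 5.94 and 1.69 FPKM in wild-type libraries, so the lowest and the highest value were both wild type. Setd2, the trimethylase of histone H3 lysine 36, had 2.30 and 2.86 FPKM in MST1-deficient and 3.16 and 2.19 FPKM in wild-type libraries. Setd5, a SET-domain protein that regulates chromatin, had 3.36 and 2.14 FPKM in MST1-deficient and 2.63 and 2.56 FPKM in wild-type libraries. In these genes too the groups overlapped. Kmt2a and Setd1a, catalytic members of the same COMPASS-like group as Kmt2b, stayed at or below 0.65 FPKM in every library. Kmt2e, a SET-domain protein of the same naming family, had 0.96 and 0.60 FPKM in MST1-deficient and 0.47 and 0.24 FPKM in wild-type libraries. Setd1b had 0.24 and 0.20 FPKM in MST1-deficient and 0.84 and 0.27 FPKM in wild-type libraries.

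**Figure D2:**
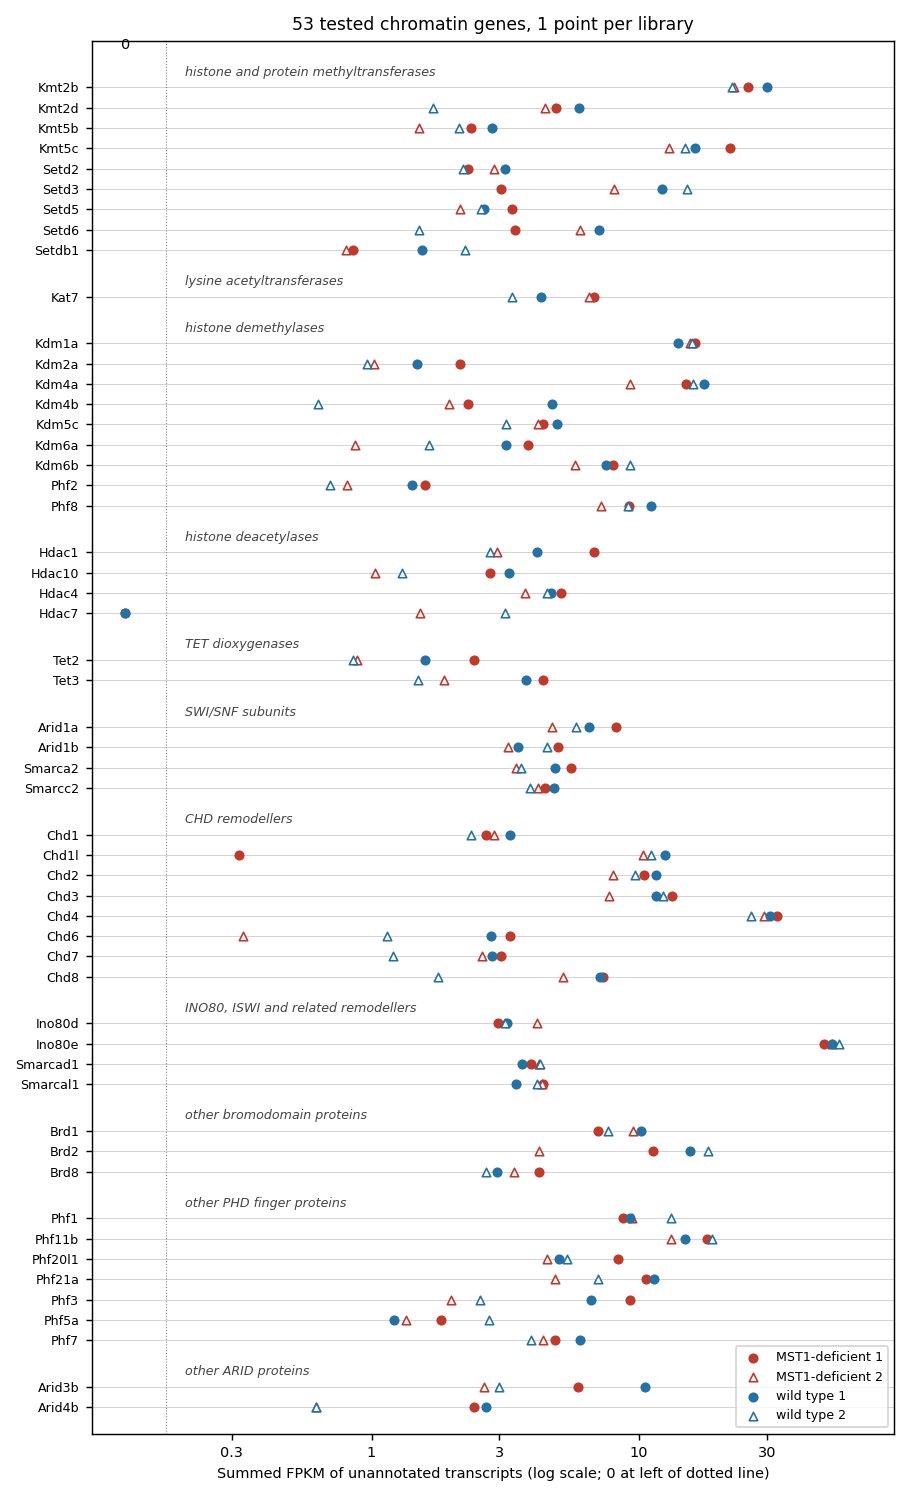
Summed FPKM (log scale) of 53 tested members, grouped by role, with 1 point for each MST1-deficient and wild-type library and values of 0 left of the dotted line. Ino80e and Chd4 stand at the high end, and in most members the points of the groups overlap.

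Demethylases also made up 14 members, 9 of them tested. Kdm4a, which removes methyl groups from histone H3 lysines 9 and 36, had 15.01 and 9.27 FPKM in MST1-deficient and 17.53 and 15.97 FPKM in wild-type libraries (gene at chromosome 4, 118136957 to 118180090). Both MST1-deficient libraries were below both wild-type libraries, with a log2 fold change of -0.43 (SE 0.23, edgeR adjusted p = 0.943), and -0.26 when MST1-deficient replicate 2 was left out. Kdm1a, the demethylase LSD1 that works with corepressors in myeloid differentiation, had 16.2 and 15.5 FPKM in MST1-deficient and 14.0 and 15.8 FPKM in wild-type libraries. Its values overlapped, and the 95% interval of its log2 fold change was -0.51 to 0.80. Kdm6b, which removes methyl groups from histone H3 lysine 27, had 7.97 and 5.78 FPKM in MST1-deficient and 7.55 and 9.23 FPKM in wild-type libraries, also with overlap.

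The demethylase genes Kdm5c, Kdm6a and Phf8 lie on the X chromosome. Kdm5c, which acts on histone H3 lysine 4, had 4.38 and 4.18 FPKM in MST1-deficient and 4.94 and 3.19 FPKM in wild-type libraries. Kdm6a, which acts on histone H3 lysine 27, had 3.86 and 0.87 FPKM in MST1-deficient and 3.19 and 1.64 FPKM in wild-type libraries. Phf8, a PHD finger demethylase, had 9.15 and 7.22 FPKM in MST1-deficient and 11.1 and 9.09 FPKM in wild-type libraries. All 3 overlapped between the groups. The genes Ddx3y, Uty and Eif2s3y on chromosome Y summed to 20.8 and 11.6 FPKM in MST1-deficient and 3.58 and 0 FPKM in wild-type libraries. Each of these 3 genes was higher in both MST1-deficient than in both wild-type libraries (edgeR adjusted p = 0.943, 0.89 and 0.941). The labels do not state the sex of the mice, so genotype and sex cannot be separated in these libraries. This holds for every genotype comparison given here, on the X chromosome or elsewhere. The part of sex in the values of the members was not tested. Of the demethylases below the minimum, Kdm4c had 1.08 and 0.62 FPKM in MST1-deficient and 0.49 and 0.15 FPKM in wild-type libraries. Kdm5a had 0.14 and 0.32 FPKM in MST1-deficient and 0.54 and 0.57 FPKM in wild-type libraries, and Kdm3b also had both MST1-deficient values below both wild-type values, at 0.27 FPKM or less throughout.

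No tested deacetylase or TET enzyme had values that separated the genotypes. Hdac1, a catalytic subunit of the NuRD and Sin3 complexes, had 6.78 and 2.94 FPKM in MST1-deficient and 4.14 and 2.78 FPKM in wild-type libraries. Hdac4, a class II deacetylase that shuttles between nucleus and cytoplasm, had 5.10 and 3.76 FPKM in MST1-deficient and 4.70 and 4.54 FPKM in wild-type libraries. Hdac7 was listed only in the libraries numbered 2, at 1.52 FPKM in MST1-deficient and 3.16 FPKM in wild-type cells. Tet2, which oxidises 5-methylcytosine and restrains myeloid expansion in mice, had 2.41 and 0.88 FPKM in MST1-deficient and 1.58 and 0.85 FPKM in wild-type libraries. Tet3, its relative, had 4.38 and 1.87 FPKM in MST1-deficient and 3.79 and 1.49 FPKM in wild-type libraries. In both TET genes replicate 1 exceeded replicate 2 in each genotype. Hdac9, a class II deacetylase below the minimum, had 0.47 and 0.30 FPKM in MST1-deficient and 1.36 and 0.91 FPKM in wild-type libraries.

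Among the CHD remodellers all 8 members were tested. Chd4, the ATPase of the NuRD complex, had 32.6 and 29.3 FPKM in MST1-deficient and 30.8 and 26.3 FPKM in wild-type libraries, second among all members. The values overlapped, and its log2 fold change of 0.18 had a 95% interval of -0.28 to 0.64. Chd2, a remodeller of active chromatin, had the narrowest interval of all members, from -0.61 to 0.29, around a log2 fold change of -0.16. Chd3, the other NuRD ATPase of this pair, had 13.3 and 7.75 FPKM in MST1-deficient and 11.6 and 12.3 FPKM in wild-type libraries. Chd8, known as a binding partner of beta-catenin, had 7.34 and 5.20 FPKM in MST1-deficient and 7.17 and 1.77 FPKM in wild-type libraries. Wild-type replicate 2 was low for Chd8, whereas for Chd1l the low library was MST1-deficient replicate 1. Chd1l, a remodeller recruited by poly(ADP-ribose) at DNA damage, had 0.32 and 10.3 FPKM in MST1-deficient and 12.5 and 11.1 FPKM in wild-type libraries. The groups did not overlap, yet the difference rested on 1 library: the log2 fold change was -0.93 (SE 1.37) with all libraries, 0.03 with MST1-deficient replicate 1 left out and -4.93 with replicate 2 of that genotype left out.

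Ino80e, a subunit of the INO80 remodeller, had the highest level of all members. It had 49.0 and 52.6 FPKM in MST1-deficient and 52.5 and 56.0 FPKM in wild-type libraries, a spread that overlapped, with a log2 fold change of -0.02 (SE 0.25). Ino80, the ATPase of that complex, had 0.90 FPKM or less in each library. Smarcal1, which reanneals single-stranded DNA at stalled forks, had 4.39 and 4.32 FPKM in MST1-deficient and 3.46 and 4.15 FPKM in wild-type libraries. Its groups did not overlap, but the log2 fold change was 0.26 with an SE of 0.35 (edgeR adjusted p = 0.992). It ran from 0.05 without wild-type replicate 1 to 0.49 without wild-type replicate 2, and was 0.11 without MST1-deficient replicate 2. Smarca5, the ISWI ATPase, did not exceed 0.10 FPKM.

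SWI/SNF subunits were represented by 8 members, 4 of which were tested and all of which overlapped between the groups. Arid1a, the DNA-binding subunit of the canonical complex, had 8.18 and 4.71 FPKM in MST1-deficient and 6.49 and 5.82 FPKM in wild-type libraries. Arid1b, its alternative, had 4.96 and 3.24 FPKM in MST1-deficient and 3.54 and 4.51 FPKM in wild-type libraries. Smarca2, the ATPase BRM, had 5.58 and 3.46 FPKM in MST1-deficient and 4.86 and 3.61 FPKM in wild-type libraries. For these 3 genes the highest value was in MST1-deficient replicate 1. Smarcc2, a core scaffold, had 4.46 and 4.19 FPKM in MST1-deficient and 4.81 and 3.90 FPKM in wild-type libraries. The other 4 subunits were below the minimum. Arid2, a subunit of the PBAF form of the complex, had 0.47 and 0.49 FPKM in MST1-deficient and 0.32 and 0.24 FPKM in wild-type libraries. Smarcc1, the second scaffold, had 0.37 and 0.17 FPKM in MST1-deficient and 0 and 0.06 FPKM in wild-type libraries. Brd9, of the noncanonical form, was listed in MST1-deficient replicate 1 alone, at 2.27 FPKM, and Brd7 stayed at or below 0.58 FPKM.

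Bromodomain proteins included both a higher and a lower member. Brd2, which binds acetylated histones and belongs to the BET family, had 11.3 and 4.23 FPKM in MST1-deficient and 15.6 and 18.1 FPKM in wild-type libraries (gene at chromosome 17, 34112019 to 34122814). Both MST1-deficient libraries were below both wild-type libraries, with means of 7.75 ± 4.98 and 16.8 ± 1.80 FPKM (SD, n = 2 each). The log2 fold change was -1.15 (SE 0.43, 95% interval -2.28 to -0.02), and its edgeR p of 0.048 became 0.874 after adjustment. Leaving out MST1-deficient replicate 1 gave -1.79, and leaving out replicate 2 of that genotype gave -0.71. Brd3, a relative of Brd2, had 0.38 FPKM in wild-type replicate 2 and 0 elsewhere. Brd8, a subunit of the TIP60 acetyltransferase complex, had 4.22 and 3.40 FPKM in MST1-deficient and 2.94 and 2.67 FPKM in wild-type libraries. Its MST1-deficient pair lay above the wild-type pair, with a log2 fold change of 0.50 (SE 0.27, edgeR adjusted p = 0.943).

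The remaining members named for a PHD finger or an ARID domain overlapped between the groups in all 9 that were tested. Phf11b, a PHD finger protein, was the highest of them, at 17.9 and 13.1 FPKM in MST1-deficient and 14.9 and 18.7 FPKM in wild-type libraries. Phf1, a Polycomb-like protein that binds histone H3 methylated at lysine 36, had 8.73 and 9.43 FPKM in MST1-deficient and 9.22 and 13.2 FPKM in wild-type libraries. Arid3b, a DNA-binding protein, had 5.93 and 2.63 FPKM in MST1-deficient and 10.5 and 2.99 FPKM in wild-type libraries, with the libraries numbered 1 high in both genotypes. Phf3, a PHD finger protein that binds RNA polymerase II, had 9.24 and 1.98 FPKM in MST1-deficient and 6.61 and 2.54 FPKM in wild-type libraries, in the same order.

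The 27 members below the minimum included 20 with under 1 FPKM in every library. Both MST1-deficient values were above both wild-type values in 6 of the 27, against 215 of the 1838 genes below the minimum (11.7%). Both were below in 5 of the 27, against 219 of those genes (11.9%). At these low levels the members' share was the larger in both directions, whereas among tested members it was the smaller. No member of this kind was tested in the main fit. With no filter on low values, edgeR was run on all 81 members and called 0, with a lowest adjusted p of 0.568.

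Members also varied between the libraries of 1 genotype. The highest value of the 54 tested members stood in MST1-deficient replicate 1 for 24 and in wild-type replicate 1 for 19. It stood in MST1-deficient replicate 2 for 1 and in wild-type replicate 2 for 10. Replicate 1 exceeded replicate 2 in both genotypes for 33 members (61.1%), against 43.9% of all genes tested, and the opposite held for 5 (9.26%, against 16.1%). Over the 53 members above 0 in all 4 libraries, the median absolute log2 difference was 0.50 between the MST1-deficient replicates, 0.41 between the wild-type replicates and 0.24 between the genotype means. Over the 3007 genes tested that were above 0 in all 4 libraries, these values were 0.54, 0.38 and 0.31. A difference of means of 2 libraries is smaller than one of single libraries by averaging alone.

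**Figure D3:**
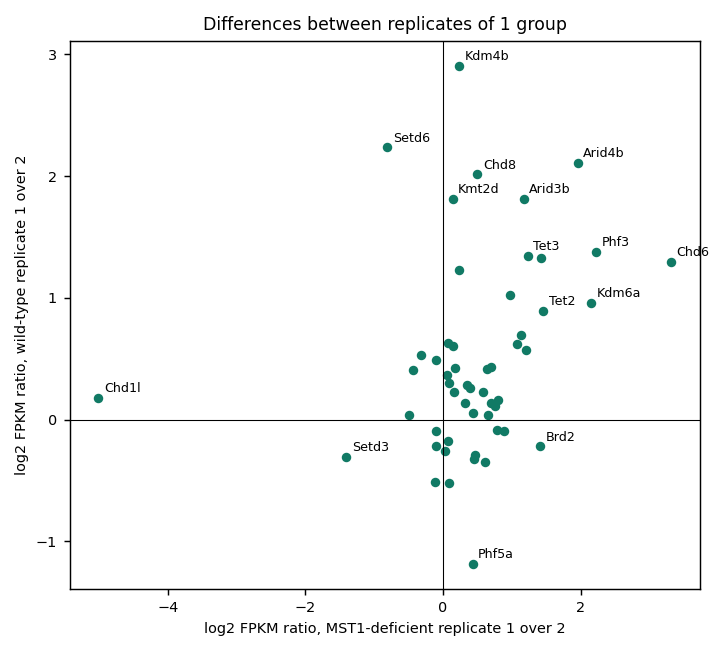
Log2 FPKM ratio of replicate 1 over replicate 2 in MST1-deficient libraries (horizontal) and in wild-type libraries (vertical), 1 point per member, for the 53 tested members above 0 in all 4 libraries. Of the 54 tested members, 33 had the higher value in replicate 1 of both genotypes, and Chd1l stands at the far left.

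Member transcripts are long, and the shortest and the longest differed in this replicate ratio. The median over all 156 was 6234.5 bases (836 to 20036), against 3882 bases for the unannotated transcripts of all known genes. Among transcripts tested and above 0 in all 4 libraries, those of all known genes had medians that went up with length: the median log2 ratio of MST1-deficient replicate 1 to replicate 2 was 0.07 under 2000 bases and 0.71 at 8000 bases or more. For the wild-type replicates these medians were 0.04 and 0.29. Of the 64 member transcripts that met the same conditions, the 19 of 8000 bases or more had medians of 0.78 for the MST1-deficient pair and 0.67 for the wild-type pair, and the 5 under 2000 bases had -0.10 and -0.09. In between, the members' medians did not go up steadily: for the MST1-deficient pair they were 0.47 at 2000 to 4000 bases, 0.09 at 4000 to 6000 and 0.53 at 6000 to 8000. Each of these member groups holds under 20 transcripts. The ratio of MST1-deficient to wild-type means was close to even in the longest member transcripts, at a median log2 of -0.04. The part of transcript length in the members' replicate differences was not tested.

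**Figure D4:**
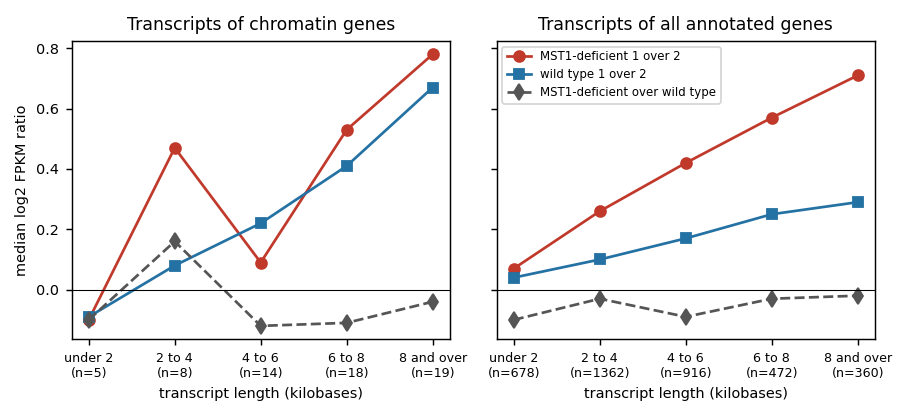
Median log2 ratio of replicate 1 to replicate 2 by transcript length (kilobases), for member transcripts (left) and transcripts of all known genes (right), with the MST1-deficient over wild-type ratio as a dashed line. The medians of all transcripts go up with length, to 0.71 for the MST1-deficient pair and 0.29 for the wild-type pair.

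Single transcripts gave the same count of calls as gene sums. Of 156 member transcripts, 78 were tested and 0 passed in edgeR, against 0% of 4661 transcripts tested, and 1 had an unadjusted p under 0.05, against 5.23%. DESeq2 and limma also called 0 member transcripts, against 2.15% and 0.107% of all. Both MST1-deficient values were above both wild-type values for 6 of the 78 (7.69%, against 13.7%) and below for 10 (12.8%, against 19.9%). The transcript with the small p was the 4705-base form of Brd2, at 8.38 and 3.38 FPKM in MST1-deficient and 14.5 and 17.7 FPKM in wild-type libraries. Its log2 fold change was -1.46 (SE 0.45, edgeR adjusted p = 0.788). Listing itself was uneven: 96 of 156 member transcripts (61.5%, against 60.7% of all) had a value in all 4 libraries. Transcripts listed in both MST1-deficient and neither wild-type library numbered 3 (1.92%, against 2.23%), and those with the opposite pattern 3 (1.92%, against 1.89%).

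Among these, 2 averaged 20 or more counts in the genotype that listed them. The 6055-base transcript of Chdh had 48.9 and 29.4 estimated counts in MST1-deficient libraries and 0 in each wild-type library. Scaled for library size, the mean of its MST1-deficient counts was 13.5-fold a limit of 3 counts per wild-type library. This ratio leaves out the spread between the MST1-deficient libraries. The 12732-base transcript of Setd5 had 21.4 and 18.8 counts in MST1-deficient libraries and 0 in each wild-type library. Its scaled mean was 6.93-fold the same limit. It made up 7.44% and 8.41% of the Setd5 signal in MST1-deficient libraries. Setd5 had 9 unannotated transcripts, the most of any member. Its 12488-base transcript had the opposite pattern, at 0 counts in each MST1-deficient library and 5.07 and 6.63 in wild-type libraries. The Setd5 gene sum had a log2 fold change of 0.10 (SE 0.29). The Chdh transcript and the 12732-base one of Setd5 were picked for being at 0 in wild type, and both were below the minimum for testing.

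The balance between transcripts of 1 gene was tested for the 18 members with at least 2 tested transcripts. By diffSplice in limma, which treats the transcripts of a gene as independent, 0 of 18 passed after adjustment, against 1.21% of 909 genes. At an unadjusted p under 0.05 there were 2, Brd2 and Arid1b, against 9.68% of genes. In Brd2 the 4372-base transcript made up 25.6% and 20.1% of the gene's FPKM in MST1-deficient and 6.95% and 2.21% in wild-type libraries. The shares did not overlap, at 22.9% ± 3.92 and 4.58% ± 3.35 (SD, n = 2 each), with a diffSplice adjusted p of 0.451. That transcript itself had 2.89 and 0.85 FPKM in MST1-deficient and 1.08 and 0.40 FPKM in wild-type libraries, which overlapped. In Arid1b the 10068-base transcript made up 70.4% and 51.5% in MST1-deficient and 40.4% and 3.77% in wild-type libraries (diffSplice adjusted p = 0.501). Again the shares did not overlap, and the wild-type pair was far apart.

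Kmt2d, Kdm6b and Arid3b were next by p. The 19818-base transcript of Kmt2d made up 17.6% and 0% in MST1-deficient and 56.7% and 79.9% in wild-type libraries, without overlap (diffSplice adjusted p = 0.934 for Kmt2d). All Kmt2d signal of MST1-deficient replicate 2 lay on a 19830-base transcript, which was at 0 in the other 3 libraries and below the minimum for testing. The balance test covered 2 Kmt2d transcripts only, of 20036 and 19818 bases, both at 0 in that library. The 6695-base transcript of Kdm6b made up 21.1% and 0% in MST1-deficient and 20.3% and 63.4% in wild-type libraries, which overlapped. Its 7196-base transcript made up 16.2% and 10.7% in MST1-deficient and 7.55% and 0% in wild-type libraries, which did not, but it was below the minimum for testing (diffSplice adjusted p = 0.865 for Kdm6b). The 3897-base transcript of Arid3b made up 86.5% and 45.6% in MST1-deficient and 20.6% and 70.2% in wild-type libraries, with overlap. Several of these transcripts differ by under 100 bases in length, as in Chd4 with forms of 6404 and 6407 bases, so the division of reads between them is uncertain. The reference annotations also hold pseudogenes named after Hdac1, Phf8, Phf20, Smarca5, Kat2b and Kat6b, whose reads could be shared with those members.

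**Figure D5:**
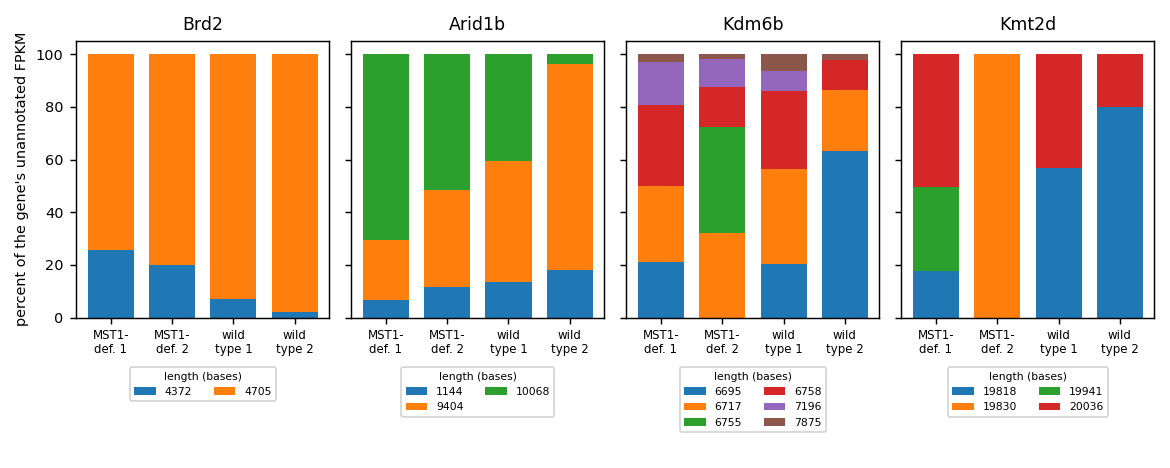
Share of each unannotated transcript (colour, length in bases) in the summed FPKM of its gene, in percent, per library, for Brd2, Arid1b, Kdm6b and Kmt2d, the members with the smallest balance p. In Brd2 the 4372-base transcript takes 25.6% and 20.1% in MST1-deficient and 6.95% and 2.21% in wild-type libraries.

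Other chromatin genes were taken from 12 lists. Some lists hold partners in the members' complexes, and others hold further histone enzymes, Polycomb proteins, DNA methylation proteins or histone chaperones. Of their 231 genes, 121 had an unannotated transcript and 93 were tested. The number past the adjusted threshold was 0 in edgeR and 1 in DESeq2, where 1.43% of all genes tested passed. It was Mllt10 (edgeR adjusted p = 0.274), a partner of the methyltransferase DOT1L. Mllt10 had 7.07 and 5.28 FPKM in MST1-deficient and 1.41 and 1.38 FPKM in wild-type libraries, without overlap (DESeq2 adjusted p = 2.2e-04). Both MST1-deficient values were above both wild-type values for 15 of the 93 (16.1%, against 14.1% of all genes tested) and below for 12 (12.9%, against 18.8%), and their median log2 fold change was 0.11. At an unadjusted edgeR p under 0.05 there were 4 on the higher side, Cbx7, Tdg, Mtf2 and Mllt10, and 1 on the lower side, Zmynd8. Over all genes tested, 3.01% stood on the higher and 2.64% on the lower side. Cbx7, a Polycomb reader of methylated histone H3, had 7.90 and 4.18 FPKM in MST1-deficient and 1.12 and 1.52 FPKM in wild-type libraries. The groups did not overlap, with a log2 fold change of 2.16 (SE 0.46, edgeR adjusted p = 0.50). Tdg, the glycosylase that removes the bases TET enzymes produce, had 7.29 and 7.85 FPKM in MST1-deficient and 2.64 and 3.34 FPKM in wild-type libraries (log2 fold change 1.41, SE 0.37, edgeR adjusted p = 0.667). Zmynd8, a bromodomain reader that recruits NuRD, had 11.4 and 8.84 FPKM in MST1-deficient and 16.3 and 20.8 FPKM in wild-type libraries (log2 fold change -1.01, SE 0.27, edgeR adjusted p = 0.673). Mtf2, a Polycomb-like partner of PRC2, had 7.59 and 7.12 FPKM in MST1-deficient and 4.78 and 2.59 FPKM in wild-type libraries (log2 fold change 1.06, SE 0.37, edgeR adjusted p = 0.845). By list, 0 to 4 genes lay above and 0 to 5 below, on lists of 1 to 17 tested genes. The largest count above was 4 of the 12 Polycomb proteins tested (33.3%), and the largest share was 2 of the 4 NuRD partners tested (50%). Over all genes tested, 14.1% lay above. The most below were 5 of the 17 other acetyltransferases and partners tested (29.4%), against 18.8% of all genes tested. Each list is short, and differences between the lists were not tested.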

How the data were processed

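Poly(A)-selected RNA of granulocyte-monocyte progenitors was sequenced in 2 MST1-deficient and 2 wild-type pools. For each library the authors deposited estimated counts (expected counts, not normalised) and FPKM, normalised for transcript length and library size, of transcripts outside the annotation, per the file headers. Per the submitters' processing notes, reads were placed on mm10. The aligner, assembler and estimator are not given in the sources used here. A transcript missing from a library was set to 0. Gene numbers were matched to symbols for 5051 of 5059 genes, and values were summed per gene.

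Genes or transcripts with at least 1 FPKM in 2 of 4 libraries were tested on all libraries: 3221 genes and 4661 transcripts, the transcripts including those of unannotated loci. Counts were rounded to whole numbers and fitted with TMM factors by edgeR 4.0.16 in R 4.3.3 (quasi-likelihood F-test, 2-sided, Benjamini-Hochberg over all features, threshold 0.05). DESeq2 1.42.0 and limma 3.58.1 on log2(FPKM + 0.5), with fold changes on that scale, were alternatives. Standard errors of log2 fold changes came from the F statistic. Scripts were tested on simulated data. Limits of 3 counts cover counting error only. Other alternatives were the filter, the scaling, the pseudocount, each replicate left out and a replicate block.

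Members named in full were those past a threshold, those without overlap, the 10 of highest mean FPKM, those with a transcript in 1 genotype alone averaging 20 counts, the 5 with the smallest balance p, and a list of core subunits. Some items are not reported here. The members and lists were chosen with earlier results of these data known.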

Additional observations from a re-analysis of the deposited data

How the results depend on the processing

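The number of members called was 0 under every alternative run for gene sums, transcripts and transcript balance. Members whose groups did not overlap numbered 8 of 54 (14.8%, against 32.8% of all genes tested). By CPM and with DESeq2 size factors there were 10 each, for which the share over all genes was not computed. With no filter on low values there were 19 of 81 (23.5%, against 29.6% of all genes). Among the 68 above 0 in all 4 libraries there were 17 (25%, against 31.9%). The median log2 fold change of members, 0.05, ranged from -0.08 to 0.15 when 1 library was left out. By limma, Kmt2b came to -0.10, -0.11 and -0.10 and Setd2 to -0.03, -0.04 and -0.03 (pseudocounts 0.5, 0.1 and 1), both 0.05 in edgeR; the cause was not tested.

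Leaving out 1 library, where the lone pool is assumed to vary like the other genotype, turned the sign in 19 named members. Log2 fold changes ran from -4.93 to 0.03 for Chd1l, -0.25 to 0.18 for Ino80e, -0.08 to 0.17 for Kmt2b, -0.05 to 0.39 for Kmt5c, -0.31 to 0.19 for Phf11b, -0.02 to 0.33 for Kdm1a, -0.40 to 0.06 for Chd3, -0.15 to 0.32 for Setd5 and -0.01 to 0.42 for Arid1b. They ran from -0.21 to 1.44 for Kmt2d, -1.21 to 0.42 for Arid3b, -0.08 to 0.37 for Smarca2, -0.17 to 0.31 for Arid1a, -0.07 to 1.78 for Chd8, -0.31 to 0.33 for Setd2, -0.08 to 0.41 for Kdm5c, -1.19 to 0.54 for Kdm6a, -0.24 to 0.91 for Tet2 and -0.26 to 0.98 for Tet3. Kat7 ran from 0.73 to 0.99. The lowest adjusted p of a named member under any alternative was 0.132.

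With the replicate number as a replicate block, 0 members were called, and the log2 fold change was 0.87 for Kat7, -1.23 for Brd2 and -1.38 for Setd3. The numbers are not stated to pair the pools, and the deviations of the same-numbered libraries correlated at 0.13 across all genes tested and 0.38 across the 54 members; genes are not independent. With 2 pools a group, the 95% interval lay within -1 to 1 for 19 of 54 members, so a 2-fold difference in 1 direction at least remained inside it for the others.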
